A study of Mus musculus with 6 samples.

Results

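Genes of the peroxisome, of ether lipid synthesis and of fatty acid beta-oxidation were followed in epithelium from the crypts of mouse jejunum. The set held 36 genes, chosen by name and function, and all 36 were on the array among 18193 genes with a probe set of a single annotated symbol. Each gene was read on 1 probe set, the one with the highest mean over the 6 arrays. Far1 had been noticed as lower in KO when the set was drawn up, so the differences between KO and WT of the member genes are given as descriptions, and nothing is read from how many of them pass a test. The study set 3 Sox9-deficient mice (KO 1 to KO 3) against 3 wild-type littermate controls (WT 1 to WT 3), all of strain C57BL/6 and 3 months of age. Each mouse gave total RNA of jejunal crypts for 1 single-colour Affymetrix array, and the study asked which genes depend on Sox9, a transcription factor of the crypt base. The labels give neither the Sox9 allele nor how the gene was removed, nor the sex of any mouse. Values are log2 GCRMA intensities, and differences are KO minus WT on that scale.

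Peroxisomes are small organelles that shorten very long and branched fatty acids, break down the hydrogen peroxide made on the way and carry out the first steps of ether lipid synthesis. Proteins called peroxins build them by bringing membrane and matrix proteins in. Most other fatty acids are oxidised in mitochondria, after the carnitine shuttle has carried them inside. The nuclear receptor PPAR alpha, which binds fatty acids, switches on many genes of both routes, and in the mouse intestine fatty acid oxidation is known to support crypt stem cells as well as enterocytes.

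The arrays differed in ways beyond the genotype labels. Sox9 read near the floor in KO on 1 of its 3 probe sets (2.54 ± 0.18 in KO and 6.47 ± 0.99 in WT mice, SD, n = 3 per group), and the other probe sets read 5.81 in KO and 4.76 in WT, and 3.21 in KO and 3.31 in WT. On the probe set with 4.76 in WT the controls split, with 6.23 on WT 1, 5.38 on WT 2 and 2.68 on WT 3. WT 3 lay there below every KO array. The sources used here do not say which probe sets cover the deleted part. The Y-linked genes Eif2s3y, Kdm5d and Uty averaged 2.71 to 2.83 on the KO arrays and 2.75 on WT 3, but 7.85 on WT 1 and 8.34 on WT 2, so Y-linked signal was bright on 2 WT arrays and near the floor on the other 4. WT 3 also stood apart in a sign of RNA quality, the signal of the Gapdh control probe set at the 3' end minus that at the 5' end, which was 0.91, 0.58 and 0.37 in KO 1 to KO 3, against 0.61, 0.65 and 1.75 in WT 1 to WT 3. Epithelial markers such as Epcam were bright on all arrays, with 8 of 8 above the filter on dim probe sets (a mean of at least 4). None of the 6 smooth muscle and none of the 5 endothelial markers passed that filter, and 1 of 6 fibroblast markers did. Medians of the 14 measured enterocyte markers, taken as the distance from the mean of each gene, ran from -0.16 to 0.48 in KO and from -0.64 to 0.20 in WT. Those of the 7 lymphocyte markers ran from 0.11 to 0.85 in KO and from -1.71 to 0.18 in WT, and WT 1 was the lowest array for enterocyte, lymphocyte and macrophage markers. Those of the 6 measured Paneth cell markers were -0.56, -0.64 and 0.08 in KO and 0.59, 0.23 and 0.39 in WT. In 3 of the 6, Mmp7, Lyz1 and Itln1, the KO arrays were all under the WT arrays. The background was 3.09% of all genes, and 386 of the 9679 genes above the filter. In limma 4 of 6 were lower at an unadjusted p under 0.05, beside 190 of the 9679 genes tested. Of these 4 markers, 0 passed the adjusted threshold. Mmp7, which encodes the protease that activates defensins, differed by -4.71, Lyz1, the Paneth cell lysozyme gene, by -0.75, and the median over the 6 was -0.74. In whole crypt RNA, fewer cells of a type and less RNA per cell cannot be told apart.

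As a set the genes lay almost level between the groups. The median difference over the 36 members was 0.08, beside 0.04 over the 9679 genes above the filter, with 21 members positive and 15 negative. Of the 36, 34 passed the filter, and 0 of those 34 passed limma at an adjusted p of 0.05, where the background was 0.0103% of genes tested. At an unadjusted p under 0.05 there was 1 member, Far1, where the background was 3.93%; since Far1 was picked for this contrast, nothing is read from it. The 3 KO arrays were all lower than the 3 WT arrays in 2 of 36 members, Agps and Acox2 (background 3.09% of all genes), and all higher in 0 of 36 (background 3.28%). Over the 9679 genes above the filter they were all lower in 386 and all higher in 536. The absolute difference was under 0.5 in 30 of 36 members and over 1 in 3, namely Far1, Acox2 and Acot1 (8.33%). Over all genes tested it was under 0.5 in 8631 of 9679 and over 1 in 2.88%; of the 3 members, Far1 had been picked for its difference and Acox2 lay under the filter. The median absolute difference was 0.18, less than the median SD between mice of 0.28 in KO and 0.28 in WT.

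**Figure D1:**
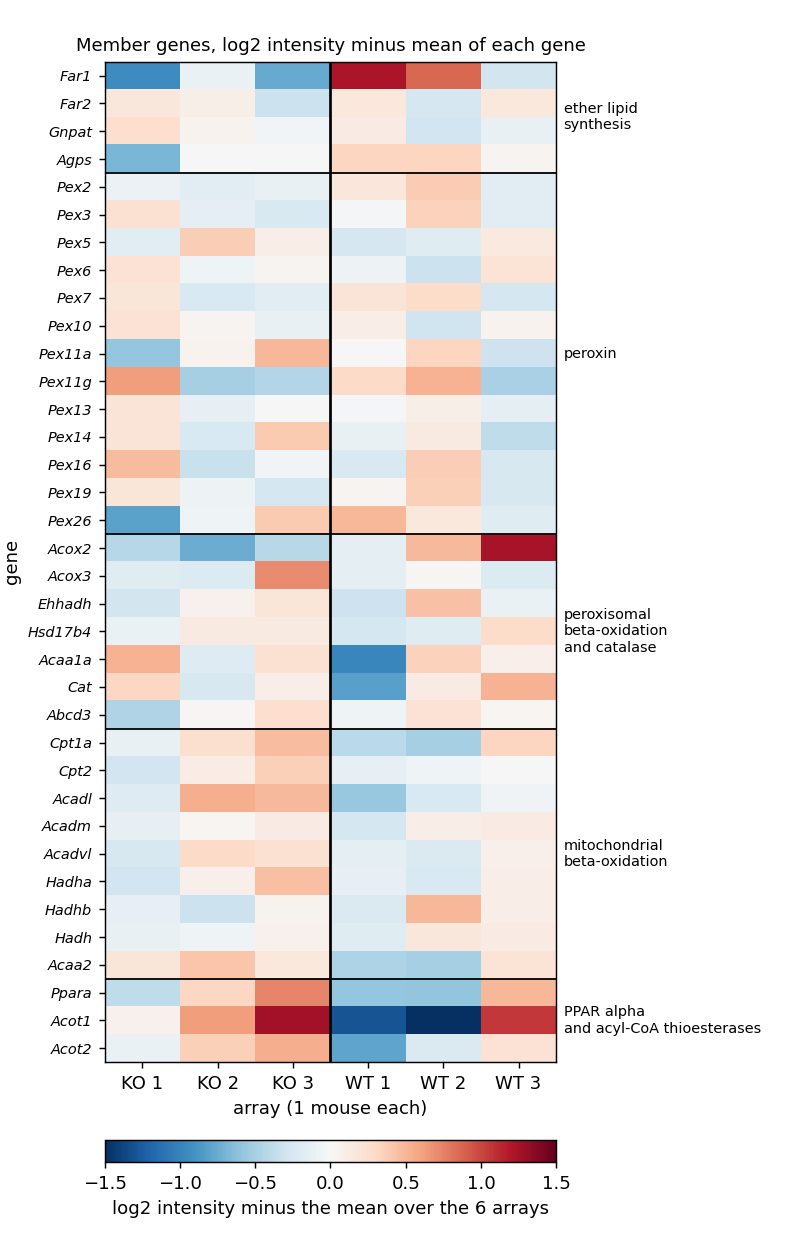
Log2 intensity of the 36 member genes (rows, ordered by role) on the 6 arrays (columns, KO left of WT), each minus the mean of its gene over the 6 arrays; colours are clipped at 1.5 in either direction, which affects Acot1 on WT 2. Far1 is blue on KO 1 and KO 3 and red on WT 1 and WT 2, and the genes at the bottom are blue on WT 1 and WT 2 but not on WT 3.

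Within ether lipid synthesis, Far1 and Agps lay lower in KO, and Far2 and Gnpat lay close to level. Far1 makes the fatty alcohol of ether lipids by reducing an acyl-CoA, and Far2 is its relative. Gnpat loads an acyl group onto dihydroxyacetone phosphate inside the peroxisome, and Agps then exchanges that acyl group for the fatty alcohol, which forms the ether bond. The 250 bases upstream of the annotated start of Far1 and Agps are shown because these members each had 2 probe sets in which all KO arrays lay under all WT arrays; that of Acot1, the member with the largest positive difference, follows for comparison. Capitals mark CCAAT on either strand (ATTGG on the reverse) and the core of SOX binding motifs, ACAAT, on either strand (ATTGT on the reverse). The sequences are from RefSeq, build GRCm38.p6, written along the strand of the gene, all on the plus strand: chr7:113513584-113513833 for Far1, chr2:75831927-75832176 for Agps and chr12:84009252-84009501 for Acot1.
Far1: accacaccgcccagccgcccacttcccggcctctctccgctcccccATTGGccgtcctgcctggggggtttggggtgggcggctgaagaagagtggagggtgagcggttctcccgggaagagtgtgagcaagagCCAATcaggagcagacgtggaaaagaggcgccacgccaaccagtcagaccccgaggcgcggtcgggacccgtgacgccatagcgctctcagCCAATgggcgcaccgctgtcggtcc
Agps: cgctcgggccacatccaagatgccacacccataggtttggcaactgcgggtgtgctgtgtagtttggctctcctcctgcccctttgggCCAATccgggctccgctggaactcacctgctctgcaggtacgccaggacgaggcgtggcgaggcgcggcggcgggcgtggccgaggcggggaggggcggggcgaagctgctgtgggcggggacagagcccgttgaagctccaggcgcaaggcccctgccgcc
Acot1: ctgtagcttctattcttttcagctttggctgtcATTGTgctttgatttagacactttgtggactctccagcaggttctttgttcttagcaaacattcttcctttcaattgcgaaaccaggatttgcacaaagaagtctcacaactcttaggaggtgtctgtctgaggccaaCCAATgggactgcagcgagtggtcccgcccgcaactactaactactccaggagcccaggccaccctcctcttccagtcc
The Far1 window held 3 CCAAT matches and no ACAAT, the Agps window 1 CCAAT match and no ACAAT, and the Acot1 window 1 of each. RefSeq windows were at hand for 32 of the 36 members. Among these, ACAAT was found in 7 (21.9%, against 30.9% of all 27025 genes) and CCAAT in 13 (40.6%, against 37.5%). The direct repeat bound by PPAR alpha, searched as AGGTCANAGGTCA on both strands, was in 0 of 32 and in 0.0407% of all genes. A match or its absence describes these letters in this window only.

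Far1 has 5 probe sets. The brightest, which represents the gene here, read 3.74, 4.57 and 3.93 in KO 1 to KO 3, against 5.90, 5.54 and 4.40 in WT 1 to WT 3. WT 3 lay below KO 2, so the groups overlapped, and the difference of the means was -1.20. The next read 3.51, 3.80 and 3.63 on the KO arrays, against 5.58, 4.95 and 5.48 on the WT arrays. There WT 3 stood with the other controls and the groups were apart by over 1 log2 unit, with a difference of -1.69. Another, below the filter, read 2.78, 2.70 and 3.16 in KO and 4.68, 3.32 and 4.44 in WT (difference -1.26), again without overlap. The remaining 2 read between 2.48 and 3.02 on every array, near the floor, and their differences were -0.02 and -0.05. The 3 probe sets with signal thus ran the same way, and they disagreed on WT 3. All KO values of Far1 lay between 2.70 and 4.57 on them, close to where GCRMA compresses differences.

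The same disagreement showed when Y-linked signal entered the fit as a covariate. The difference of the brightest Far1 probe set became -0.35, while that of the next stayed at -1.87 and that of the one below the filter at -1.62. For Far1 the size of the lower signal in KO therefore depended on the probe set read, and the part of Y-linked signal in it can be separated only through WT 3, a single control.

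Agps read 6.60, 7.28 and 7.28 in KO 1 to KO 3, against 7.60, 7.60 and 7.31 in WT 1 to WT 3 on its brightest probe set. KO 1 was the lowest array, and KO 2 and KO 3 lay just under WT 3. The difference was -0.46 (7.05 ± 0.39 in KO and 7.50 ± 0.17 in WT mice, SD, n = 3 per group), and -0.23 without KO 1. Its other probe set above the filter read 4.69, 5.64 and 5.21 in KO, against 5.90, 6.50 and 6.19 in WT, again with no overlap and with a difference of -1.02. This one kept -0.99 with the Y-linked covariate, where the brighter one had -0.28. A further Agps probe set was at the floor, between 2.26 and 2.31 on all arrays.

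**Figure D2:**
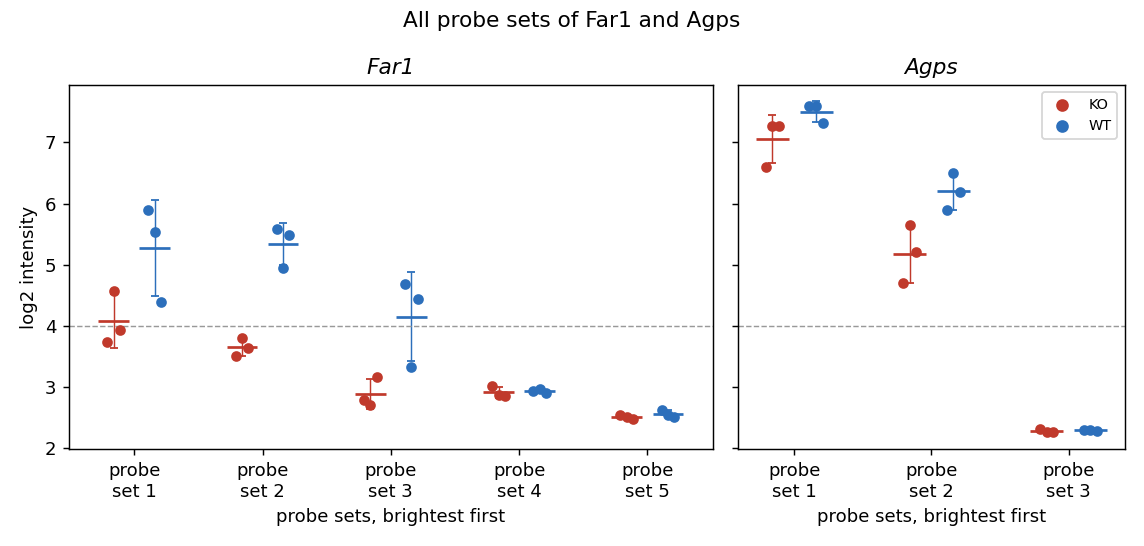
Log2 intensity of every probe set of Far1 (left) and Agps (right), brightest first; points are single arrays (KO red, WT blue, in the order 1 to 3), horizontal lines are means and bars are 1 SD (n = 3 per group), and the dashed line is the filter at a mean of 4. KO points lie lower on Far1 probe sets 1 to 3 and Agps probe sets 1 and 2, and the others are flat near the floor.

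Gnpat, which acts just before Agps, read 9.13, 8.93 and 8.84 in KO and 9.00, 8.58 and 8.76 in WT, and the groups overlapped (difference 0.18). Far2 read 10.37, 10.29 and 9.88 in KO and 10.36, 9.95 and 10.36 in WT. Its groups overlapped as well, and its 2 probe sets had differences of -0.05 and -0.12. On the brightest probe sets Agps was the 1 gene of these 4 with all KO arrays under all WT arrays, beside 386 of 9679 genes tested. Its highest KO value was 7.28 and its lowest WT value 7.31. Of the 6 Paneth cell markers 5 were also lower in KO (median -0.74), and Ang4 was not (0.06). Single markers of other cell types were lower without overlap too, such as the tuft cell marker Dclk1 (-1.68) and the stem cell marker Rgmb (-1.28). The medians of their lists were 0.16 and -0.06. The part of cell makeup in the values of Far1 and Agps was not tested.

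Peroxins lay level. Over the 13 measured, all above the filter, the median difference was -0.02, with 6 positive and 7 negative, 0 called and 0 without overlap on the brightest probe sets. With the Y-linked covariate that median was 0.18, beside 0.03 over all genes tested. That fit rests mainly on WT 3, the only control with Y-linked signal near the floor and the array with the highest Gapdh 3' minus 5' value (1.75). Pex3, Pex16 and Pex19 bring membrane proteins to the peroxisome, and their differences were -0.10, 0.07 and -0.10. Pex5 and Pex7 are the receptors for the matrix targeting signals, and Pex13 and Pex14 form the docking site on the membrane. Their differences were 0.20 for Pex5, -0.14 for Pex7, 0.05 for Pex13 and 0.24 for Pex14. A second, dimmer Pex5 probe set read 4.15, 6.10 and 5.88 in KO and 4.36, 4.67 and 2.97 in WT, a difference of 1.38 that KO 1 did not share. Pex2 and Pex10, ring-finger proteins of the export machinery, differed by -0.25 and 0.10, and the ATPase gene Pex6 by 0.13. Dimmer probe sets of a pair of peroxin genes did separate the groups. One of Pex6 read 8.78, 8.67 and 8.77 in KO and 8.51, 7.87 and 8.33 in WT, above in every KO array (difference 0.51), and one of Pex19 read 7.14, 7.20 and 7.18 in KO and 7.34, 7.62 and 7.40 in WT, below in every KO array (difference -0.28). Over all genes tested, on 1 probe set each, 536 of 9679 lay above in every KO array and 386 below. Nothing is read from this pair, which ran in opposite directions.

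The largest difference among peroxins was that of Pex26, the membrane anchor of Pex6. It read 6.44, 7.17 and 7.63 in KO 1 to KO 3, against 7.73, 7.40 and 7.05 in WT 1 to WT 3 (difference -0.32). Only KO 1 stood below the WT range, and without KO 1 the difference was 0.01. Pex11g, which promotes peroxisome division with Pex11a, parted single mice in both groups, with 7.73 in KO 1, against 7.39 in WT 1 and 7.62 in WT 2, and with 6.61 to 6.67 on the remaining 3 arrays. Its difference was -0.21, and that of Pex11a was -0.02.

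In the peroxisomal oxidation pathway, Acox2 was lower in KO at the edge of detection and the other enzymes were level. Acox2 oxidises branched chains, bile acid precursors among them, in the first step of the pathway. It read 2.70, 2.39 and 2.72 in KO and 2.99, 3.62 and 4.36 in WT. Every KO array was below every WT array (difference -1.06), but the mean of 3.13 put it under the filter, it was not tested, and WT 3 alone stood above 4. Without WT 3 the difference was -0.71. Acox3, the oxidase for branched fatty acids such as pristanic acid, averaged 2.66 in KO and 2.44 in WT, and KO 3 alone exceeded 3 (3.26).

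Further along the pathway Ehhadh and Hsd17b4, the bifunctional enzymes of the middle steps, differed by -0.02 and 0.11. The thiolase gene Acaa1a read 8.64, 7.92 and 8.35 in KO and 7.14, 8.46 and 8.19 in WT. WT 1 alone was low on this probe set, and the difference of 0.37 became -0.02 without it. A dimmer Acaa1a probe set read 5.74, 5.46 and 5.56 in KO and 4.79, 5.48 and 5.24 in WT (difference 0.42). WT 1 was again lowest there, and WT 3 also lay below the KO arrays. Catalase, Cat, which breaks down hydrogen peroxide, read 12.70, 12.14 and 12.48 in KO and 11.57, 12.50 and 12.91 in WT (difference 0.11, or -0.26 without WT 1). WT 1 was the lowest array in both genes, as it was for the enterocyte markers (median -0.64 from the mean of each gene) and the lymphocyte markers (-1.71), and the part of cell makeup in these values was not tested. Abcd3, the transporter for bile acid precursors and branched fatty acids, differed by -0.12.

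Mitochondrial beta-oxidation genes were on the positive side in 7 of 9 members, beside 5440 of 9679 over all genes tested. Their median was 0.16, or -0.03 with the Y-linked covariate, with 0 called and 0 without overlap. Acadl, the long-chain acyl-CoA dehydrogenase gene, had the largest difference. It read 11.66, 12.40 and 12.35 in KO and 11.29, 11.63 and 11.81 in WT. KO 2 and KO 3 lay above all controls and KO 1 among them, and the difference was 0.56 (12.14 ± 0.41 in KO and 11.58 ± 0.26 in WT mice, SD, n = 3 per group). The other chain-length dehydrogenase genes, Acadm and Acadvl, differed by 0.02 and 0.18.

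Acaa2, the mitochondrial thiolase gene, read 12.59, 12.83 and 12.57 in KO and 11.95, 11.91 and 12.61 in WT. WT 3 stood among the KO arrays and the other two controls lay lower (difference 0.50). Its 3 probe sets had differences between 0.35 and 0.77. The one with 0.77 did not show this order: WT 3 (10.63) read with WT 2 (10.64), and WT 1 (11.04) lay above KO 1 (10.90). With the Y-linked covariate its difference was 0.87, where the brightest one had 0.05. Cpt1a, which makes the acylcarnitines that enter mitochondria, read 10.82, 11.17 and 11.39 in KO and 10.54, 10.44 and 11.25 in WT. The pattern was the one of the brightest Acaa2 probe set, with a difference of 0.38, but 2 further Cpt1a probe sets had -0.05 and -0.09. Cpt2, which turns acylcarnitines back into acyl-CoA, differed by 0.12.

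Hadha and Hadhb encode the subunits of the trifunctional protein, and their annotated starts on chromosome 5 lie 273 bases apart on opposite strands. They differed by 0.16 and -0.26, each less than the SD between WT mice or between KO mice (0.37 in KO for Hadha, 0.35 in WT for Hadhb). The 3 Hadhb probe sets ranged from -0.26 to 0.41. Hadh, the dehydrogenase for medium and short chains, differed by -0.08. Of the 19 members with more than 1 probe set above the filter, 8 had probe sets of opposite sign, Cpt1a, Hadh, Hadhb, Hsd17b4, Pex11a, Pex19, Pex3 and Ppara.

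**Figure D3:**
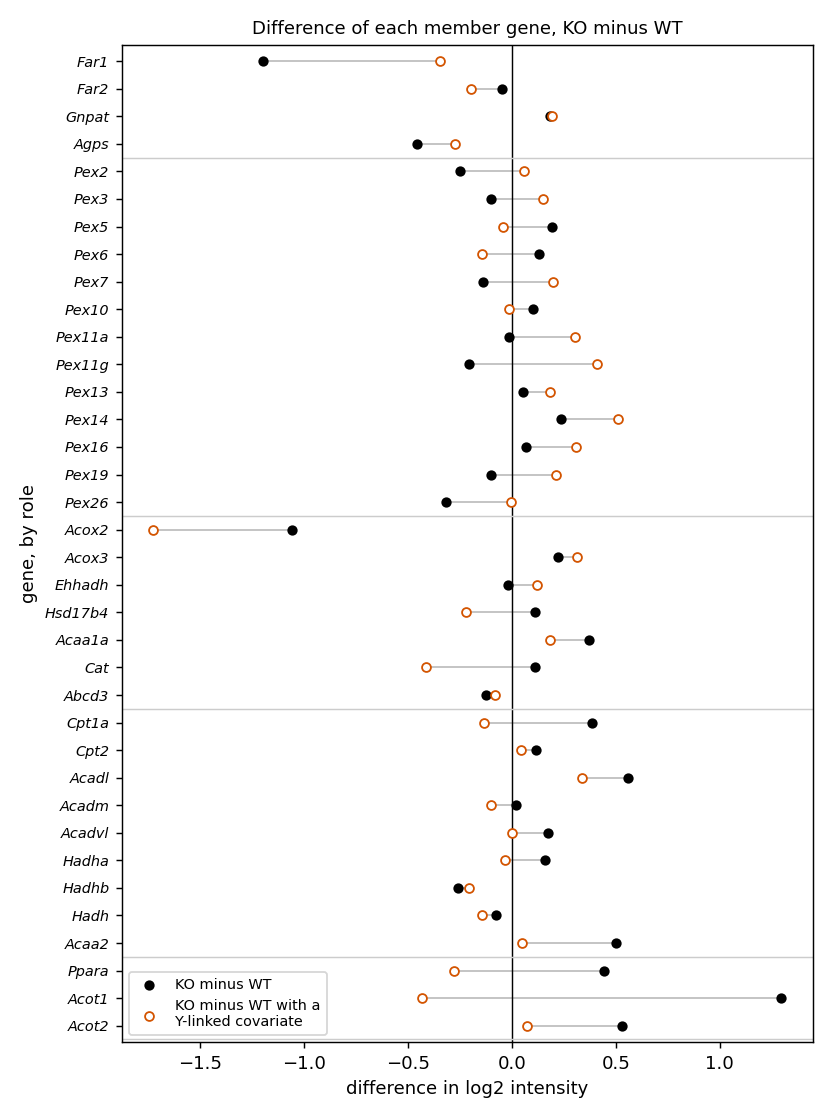
Difference KO minus WT in log2 intensity for each of the 36 member genes (rows by role, grey lines between roles); black points are the plain difference and open points the difference with Y-linked signal as a covariate. Acot1, Ppara, Cpt1a and Acaa2, and Far1 from the other side, move toward or past 0 with the covariate. Others move away from 0, Acox2, Pex14 and Pex16 among them.

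In the genes of PPAR alpha and the thioesterases the controls split, with WT 3 among the KO arrays. Ppara, which encodes the receptor, read 8.53, 9.22 and 9.65 in KO and 8.34, 8.32 and 9.40 in WT. Acot1, a cytosolic thioesterase gene that PPAR alpha is known to induce in mice, read 7.03, 7.59 and 8.23 in KO and 5.67, 5.26 and 8.03 in WT. Acot2, its mitochondrial relative, read 6.98, 7.44 and 7.63 in KO and 6.30, 6.87 and 7.30 in WT. On these probe sets WT 1 and WT 2 were the lowest arrays. The other Ppara probe sets did not show this order: one had KO 1 and KO 2 lowest (6.83 and 7.01, against 7.61 in WT 1 and 7.28 in WT 2), and on the other KO 1 (7.66) lay just below WT 1 (7.67). The differences were 0.45 for Ppara, 1.30 for Acot1 (7.62 ± 0.60 in KO and 6.32 ± 1.49 in WT mice, SD, n = 3 per group) and 0.53 for Acot2, and the 3 Ppara probe sets ranged from -0.29 to 0.45. Without WT 3 the Acot1 difference was 2.15, and without WT 2 it was 0.77. Acot1 and Acot2 are close paralogs that start 21641 bases apart on chromosome 12, so that their probe sets may share signal.

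This split was noticed after the values were seen. WT 1 and WT 2, which carried bright Y-linked signal, lay below the other 4 arrays in 9 of the 34 tested members (26.5%), where the background was 8.37% of genes tested. These were Ppara, Acot1, Acot2, Cpt1a, Acadl, Acaa2, Hsd17b4, Pex5 and Pex6. The count holds for the brightest probe sets only. In Ppara, Cpt1a, Acaa2, Hsd17b4, Pex5 and Pex6 at least 1 other probe set above the filter broke this order. Acot1, Acot2 and Acadl had no other probe set above the filter. WT 1 and WT 2 lay above the other 4 in 4 members, Far1, Agps, Pex2 and Pex7 (background 5.69%). Far1 had been picked for lower values in KO, which favours this order, and nothing is read from either count. With the Y-linked covariate the difference on the brightest probe set of Acot1 was -0.43, of Ppara -0.28, of Acot2 0.07, of Cpt1a -0.13 and of Acaa2 0.05. The slope on Y-linked signal reached an unadjusted p under 0.05 in 3 of 34 members in limma, Acot1, Far1 and Acaa2, where the background was 4% of genes tested. It passed the adjusted threshold in 0 of 34 (background 0.0207%), with an adjusted p of 0.590 for Acot1. With 2 controls on 1 side of that signal and 1 control on the other, genotype and Y-linked signal overlap heavily. The labels do not state sex, but Xist, an X-linked gene expressed in females, ran opposite to the Y-linked genes. It read 12.3, 13.3 and 13.4 in KO 1 to KO 3 and 13.2 on WT 3, against 1.9 on WT 1 and 3.7 on WT 2. By these genes WT 1 and WT 2 read as male and the other 4 arrays as female. WT 3, the control that parted from WT 1 and WT 2, was also the array with the highest Gapdh 3' minus 5' value (1.75, against 0.37 to 0.91 on the other 5 arrays), and in the controls these features cannot be told apart.

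**Figure D4:**
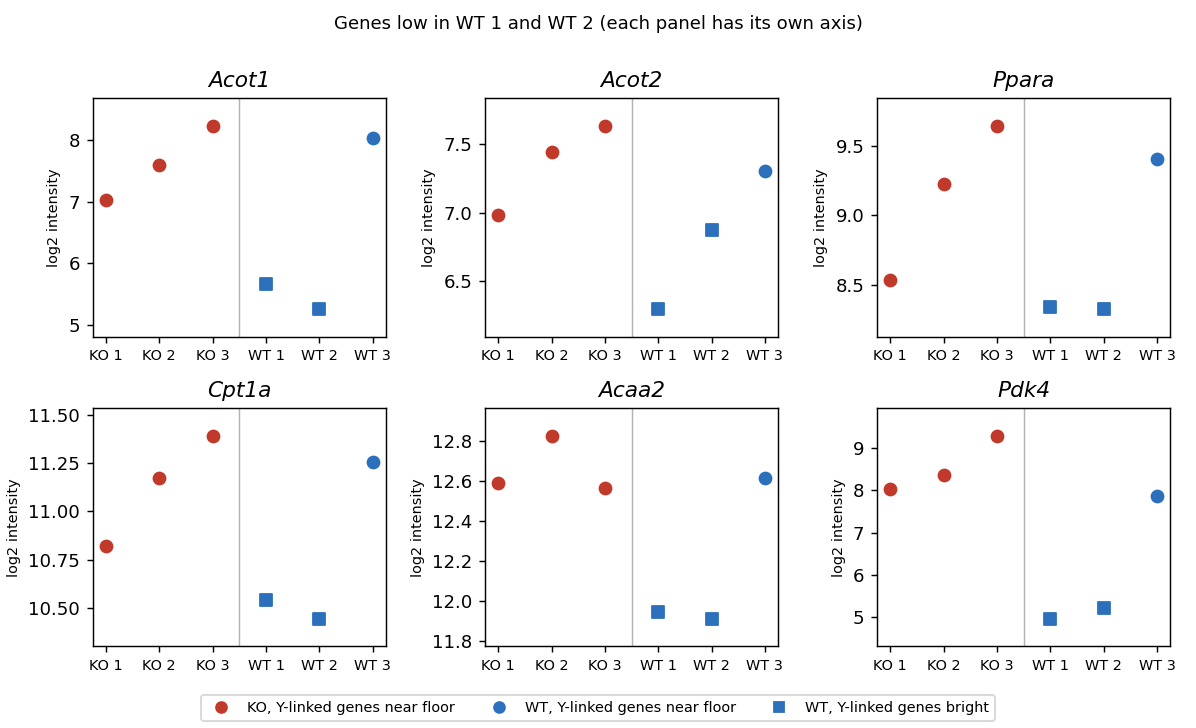
Log2 intensity of Acot1, Acot2, Ppara, Cpt1a, Acaa2 and the PPAR target gene Pdk4 on each array (KO red, WT blue; squares are arrays with bright Y-linked genes, circles arrays with Y-linked genes near the floor; each panel has its own axis). In all 6 panels WT 1 and WT 2 are the lowest arrays and WT 3 lies near the KO arrays.

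Beyond the 36 members, 103 further genes of the same pathways were listed, 91 were measured and 81 passed the filter. Of these 81, 0 rose and 0 fell in limma at an adjusted p of 0.05 (background 0.0103%), and at an unadjusted p under 0.05 there were 3 higher and 0 lower (background 3.93%). The median difference was 0.10. Each tested gene named from here had an adjusted p of 0.999. Pdk4, which restrains glucose oxidation by inhibiting pyruvate dehydrogenase and is a known PPAR target, read 8.03, 8.35 and 9.29 in KO and 4.96, 5.21 and 7.87 in WT. All KO arrays lay above all WT arrays, with a difference of 2.55 ± 0.80 (SE), yet WT 3 stood far closer to KO than to the other controls, and with the Y-linked covariate the difference was 0.70. Plin2, a lipid droplet coat gene, differed by 0.36 ± 0.20 (SE).

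Among further peroxisomal lipid enzymes, of which 0 of 24 tested passed, the epoxide hydrolase gene Ephx2 read 12.56, 12.32 and 12.09 in KO and 10.82, 12.03 and 11.60 in WT. Its groups did not overlap (difference 0.84 ± 0.33, SE). Nudt12, which encodes a peroxisomal NADH pyrophosphatase, read 7.36, 7.69 and 7.61 in KO, against 7.85, 8.42 and 7.96 in WT, a difference of -0.52 ± 0.22 (SE). It was the 1 further gene with every KO array below every WT array. Phyh, which starts the breakdown of phytanic acid, and Acad12 were named after their values were seen. With Pdk4, Ephx2 and Acad10 they made up the 5 of 91 further genes with every KO array above every WT array. The background was 3.28% above and 3.09% below over all genes, most dim ones included. Over the 9679 genes tested it was 536 above and 386 below, and nothing is read from the count. Phyh differed by 0.44 and Acad12, under the filter, by 0.33.

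In the mitochondrial list, 0 of 21 tested passed, and the acyl-CoA dehydrogenase family genes Acad10 and Acad9 differed by 0.51 ± 0.19 and 0.49 ± 0.23 (SE). Among 8 further ether lipid genes tested, again 0 passed. Dhrs7b, whose product reduces the intermediate made by Agps, differed by 0.29 and Pnpla8, a phospholipase gene, by -0.16. Of 9 further peroxisome biogenesis and membrane genes tested 0 passed, with Vapb, which tethers the endoplasmic reticulum to peroxisomes, at -0.34 and the membrane protein gene Pxmp4 at 0.30. In each of these genes the groups overlapped, other than Acad10.

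Medians by array, taken from the mean of each gene, showed how the roles varied between mice. For the 9 mitochondrial genes they were -0.13, 0.11 and 0.23 in KO 1 to KO 3, against -0.21, -0.21 and 0.11 in WT 1 to WT 3. For Ppara and the thioesterases they were -0.11, 0.36 and 0.74 in KO and -0.79, -0.59 and 0.49 in WT. In both roles WT 1 and WT 2 were lowest and KO 3 highest, and WT 3 lay within the KO range. The peroxins ran differently, at 0.20, -0.12 and -0.04 in KO and 0.01, 0.27 and -0.19 in WT, with WT 2 highest and WT 3 lowest. The groups overlapped in every role.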

How the data were processed

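Gene expression was measured in 6 mice, 1 array each. The deposited values are log2 intensities that the authors made with GCRMA, a method that models background from probe sequence, puts all arrays on a common scale and pulls dim probe sets toward a floor; GCRMA and limma are named, without versions or settings, in the submitters' processing notes. Of 45101 probe sets, 64 array controls were left out, and 34945 of the remaining 45037 carried 1 symbol, 932 several and 9160 none. Those with a mean of at least 4 (18108) entered a limma fit of KO minus WT (limma 3.58.1 under R 4.3.3, eBayes, two-sided), with Benjamini-Hochberg adjustment over all of them; the fit was tested on simulated data. The members and lists were chosen with earlier results of these data known. Named are all members, the 2 further pathway genes of smallest p in each of 5 lists, and Sox9; other names are marked in the text. Some listed genes are not reported here, and Tmem189 was read for Peds1. The alternatives were a replicate block, other filters, normalizations, priors, array weights, the mean of the probe sets of a gene and each array left out; the Y-linked covariate (the mean of Eif2s3y, Kdm5d and Uty) and the other Far1 probe sets were added after seeing the data. The number of arrays limits the precision, and p-values describe the spread between these 6 mice. The table held 0 columns of other samples.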

Additional observations from a re-analysis of the deposited data

How the results depend on the processing

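The count of members and of further pathway genes past the threshold was 0 under every alternative run, and the median member difference stayed between -0.0038 and 0.11; it was 0.04 with quantile normalization and just below 0 without WT 1 (-0.0038) and with the Y-linked covariate (-0.0014). Far1 ran from -1.64 without WT 3 to -0.89 without WT 1 with each array left out; it was -0.85 as the mean of its probe sets, -0.35 with the Y-linked covariate, -1.69 and -1.26 on its other probe sets with signal, and -0.021 and -0.054 on the 2 near the floor. Over all probe sets 2 passed, but 0 with a replicate block, 0 with no filter, 0 with the Y-linked covariate, 1 at a mean of at least 6, 4 with quantile normalization and 11 with array weights, and between 0 (without WT 1 or WT 2) and 16 (without WT 3) with each array left out. Deviations of same-numbered KO and WT arrays correlated at -0.05, -0.29 and 0.03. With 3 arrays per group such values cannot decide whether the replicate numbers pair the mice. The block moved 0 members past the threshold. Of 525 values of the other members under alternatives, 23 moved by at least the SD between mice, 13 of them with the Y-linked covariate and 8 with array weights. The sign of the difference held in 20 of 36 members whichever array was left out, Far1, Agps, Acox2, Acot1, Ppara, Acaa2 and Acadl among them, and turned in 16; it turned in 17 with the Y-linked covariate, Ppara and Acot1 included.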
